A study of Mus musculus with 24 samples.

Results

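The early dose difference was described in primary astrocytes, glial cells from the cortex of late mouse embryos, by comparing all genes 6 h after 2 Gy X-rays with all genes 6 h after 0.1 Gy. The comparison took 8 of the 24 libraries of the series, namely replicates n1 to n4 of each dose, which were chosen by their labels and paired by replicate number. The remaining libraries came from mock-irradiated cells, which were not used, and from cells harvested at 24 h, which enter only the comparison of the times. Both groups consisted of wild type C57BL/6J cells at passage 1, with the cells of all embryos of a pregnant mouse pooled, and the labels distinguish them only by dose. All 8 cultures were irradiated, so every difference below is one between a higher and a lower dose and not one from untreated cells. Whether a replicate number stands for a single litter is not stated in the sources used here.

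Ionizing radiation breaks DNA, and the damage stabilizes the transcription factor p53. Known p53 targets include *Cdkn1a*, which encodes the cyclin-dependent kinase inhibitor p21, *Mdm2*, whose product marks p53 for degradation and so closes a feedback loop, and a series of genes of apoptosis and DNA repair. Inhibition of cyclin-dependent kinases in turn keeps E2F-dependent genes of the S phase and genes of the G2 and M phases at a low level.

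A p53 binding site is made of decameric half-sites, and the p53 half-site was searched for in the 250 bases before the start site of each gene. Where a gene had several RefSeq start sites, only the one nearest the gene's start in the deposited positions was used. Other start sites were not searched. RefSeq promoters of GRCm38.p6 could be matched to 11743 of the 16278 genes tested and to 8 of the 9 genes that differed between the doses, *Trp53inp1* being the one not matched. The motif, which reads the same on both strands, was present in 5 of these 8 promoters (62.5%), in 696 of the matched tested genes (5.93%) and in 1942 of all 27025 promoters in the table (7.19%). It was not found in the windows of *Ano3*, *Dcxr* and *Plcd4*. The sequences around these matches are shown because they belong to the genes the comparison turns on, with the half-site in capitals.
Mdm2, chr10:117710895-117710984, minus strand: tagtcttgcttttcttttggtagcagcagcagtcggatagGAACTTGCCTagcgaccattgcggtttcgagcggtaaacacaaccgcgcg
Cdkn1a, chr17:29090866-29090977, plus strand: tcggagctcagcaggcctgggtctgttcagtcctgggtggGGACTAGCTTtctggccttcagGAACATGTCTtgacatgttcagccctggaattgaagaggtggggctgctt
Celf5, chr10:81482832-81482921, minus strand: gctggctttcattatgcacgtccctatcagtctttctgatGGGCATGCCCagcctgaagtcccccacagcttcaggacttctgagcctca
1700007K13Rik, chr2:28466366-28466455, minus strand: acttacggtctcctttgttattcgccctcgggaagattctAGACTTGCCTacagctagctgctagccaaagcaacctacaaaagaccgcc
Ddit4l, chr3:137623542-137623631, plus strand: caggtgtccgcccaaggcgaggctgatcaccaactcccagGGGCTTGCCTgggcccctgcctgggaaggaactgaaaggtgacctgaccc
The match began 186 bases before the start site in *Mdm2*, 182 bases in *Celf5*, 91 bases in *1700007K13Rik* and 90 bases in *Ddit4l*. For *Ddit4l* the RefSeq start site used lies downstream of the deposited gene start. Its window therefore falls within the deposited span, chr3:137621612-137628333. *Cdkn1a* held 2 half-sites, which began 73 and 51 bases before its start, and was one of 3 tested genes (0.0255%) in which a pair of half-sites lay at most 13 bases apart, against 14 of all promoters (0.0518%). A match is a description of these letters and neither a binding site nor a cause.

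The libraries held between 17411172 and 38194800 counts, and the smallest was 2 Gy n4. Mitochondrially encoded genes took 1.36, 2.56, 3.47 and 2.15% of the counts in 0.1 Gy n1 to n4 and 1.49, 4.22, 2.93 and 3.62% in 2 Gy n1 to n4, so this share was higher after 2 Gy in 3 of 4 pairs. The summed level of 12 astrocyte markers was 2502 to 3039 CPM (read counts scaled to the TMM-normalized library size) at 0.1 Gy and 2572 to 2971 CPM at 2 Gy. The 14 microglia markers summed to 390.9 and 415.4 CPM in pair 2 and to 2549 to 3182 CPM in the other 3 pairs, which set pair 2 apart at both doses. Sums of neuron (433.4 to 648.8 CPM), oligodendrocyte lineage (403.8 to 826.3 CPM) and fibroblast and vessel markers (4537 to 7694 CPM) overlapped between the doses. Of the defining markers, *Gjb6* of astrocytes, *Rbfox3* of neurons, *Mog* of oligodendrocytes and *Cldn5* of vessels were too low to be tested, with *Cldn5* at 0 counts in all 8 libraries. In these bulk samples fewer cells of a type and less RNA per cell cannot be told apart.

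Between the doses, 9 of 16278 genes rose and none fell (0.0553% and 0%; edgeR's quasi-likelihood test with the pairs as a block, Benjamini-Hochberg adjusted p under 0.05). They included *Cdkn1a* and *Mdm2*, and their fitted folds lay between 1.39 and 2.14. At an unadjusted p under 0.05, 438 genes were higher (2.69%) and 323 lower (1.98%) after 2 Gy. Together these are fewer than that threshold would pass on average if no gene differed. With the same block, DESeq2 called 41 genes higher and 8 lower, and limma voom 7 higher and 0 lower. The median log2 fold change over all genes was 0.00081 with quartiles of -0.074 and 0.077. The 9 genes were higher after 2 Gy in 4 of 4 pairs, as were 1082 of all genes (6.65%). The count rests on few pairs, since 1 gene (*Trp53inp1*) remained without pair 1, 1 gene (*Ano3*) without pair 3, and 45 genes were called without pair 4. Without pair 2, 9 genes were called, of which 5 were shared, and *Mdm2* and *Trp53inp1* were among those lost. No gene was called when the pairing was left out.

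*Mdm2* (chr10:117688888-117710758 of GRCm38) was measured at 157, 224, 155 and 140 CPM in 0.1 Gy n1 to n4 and at 227, 306, 209 and 225 CPM in 2 Gy n1 to n4. It rose 1.44-fold, by 0.52 ± 0.0703 on the log2 scale (SE, n = 4 pairs, adjusted p = 0.0306 in edgeR). The groups overlapped only through pair 2, whose 0.1 Gy library lay within the range of the 2 Gy libraries of the other pairs. *Cdkn1a* (chr17:29090979-29100722) was at 340, 590, 336 and 274 CPM after 0.1 Gy and at 601, 730, 517 and 428 CPM after 2 Gy. It rose 1.51-fold, by 0.60 ± 0.0866 on the log2 scale (adjusted p = 0.0445). Again pair 2 was the highest at both doses. *Trp53inp1* (chr4:11156431-11174379), whose product is a p53-induced nuclear protein, was at 89.7, 136, 65.1 and 79.8 CPM after 0.1 Gy and at 113, 227, 114 and 158 CPM after 2 Gy. Its log2 fold change was 0.71 ± 0.0965 (adjusted p = 0.0306), with the smallest step in pair 1.

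*Ano3* (chr2:110655201-110950923), a member of the anoctamin family of membrane proteins, had the smallest p. It was at 12.5, 27.8, 15.4 and 16.5 CPM after 0.1 Gy and at 27.0, 50.6, 25.8 and 38.4 CPM after 2 Gy, a 1.98-fold rise with a log2 fold change of 0.98 ± 0.0953 and an adjusted p of 0.00659. *Muc15*, which overlaps it on the other strand, was at most 1.15 CPM and differed by -0.01 on the log2 scale. *Celf5* (chr10:81459227-81482709) encodes an RNA-binding protein of the CELF family and was at 8.51, 38.3, 6.47 and 11.2 CPM after 0.1 Gy and at 22.0, 57.4, 17.6 and 19.7 CPM after 2 Gy. *Celf5* rose by 1.03 ± 0.136 (adjusted p = 0.0306), and the libraries of pair 2 stood far above the others at both doses. *1700007K13Rik* (chr2:28462001-28466332), a gene without a functional name in the files, had the largest change of the 9, with 4.52, 15.4, 4.66 and 6.05 CPM after 0.1 Gy and 10.4, 25.4, 11.3 and 14.6 CPM after 2 Gy. It rose 2.14-fold, by 1.10 ± 0.119 on the log2 scale (adjusted p = 0.0105).

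*Dcxr* (chr11:120725399-120727281), the reductase of L-xylulose and dicarbonyl compounds, was at 27.0, 48.5, 21.6 and 26.2 CPM after 0.1 Gy and at 52.6, 66.5, 41.9 and 43.0 CPM after 2 Gy. Its log2 fold change of 0.77 ± 0.0946 (adjusted p = 0.0243) came with a smaller step in pair 2 than in the other pairs. *Ddit4l* (chr3:137621612-137628333), known as an inhibitor of mTOR signaling, was at 63.8, 94.4, 43.3 and 51.1 CPM after 0.1 Gy and at 84.7, 125, 65.4 and 77.2 CPM after 2 Gy, with a log2 fold change of 0.50 ± 0.0721 (adjusted p = 0.0445). *Plcd4* (chr1:74542888-74567794), which encodes a phospholipase C, was at 39.6, 70.9, 42.8 and 52.5 CPM after 0.1 Gy and at 58.9, 91.3, 60.03 and 74.2 CPM after 2 Gy. It rose by 0.48 ± 0.0710 (adjusted p = 0.0473), while *Zfp142* and *Usp37*, which overlap it on the other strand, differed by -0.01 and -0.03. Whether reads were counted by strand is not given in the sources used here. In all 9 genes the groups overlapped, and in all 9 they no longer did once pair 2 was set aside. Without pair 2 the groups lay apart in 358 of all genes with 2 Gy above (2.2%) and in 314 with 2 Gy below (1.93%). This comparison was made after the values were seen. The 9 genes were selected in these same libraries, so their separation is not independent support.

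**Figure D1:**
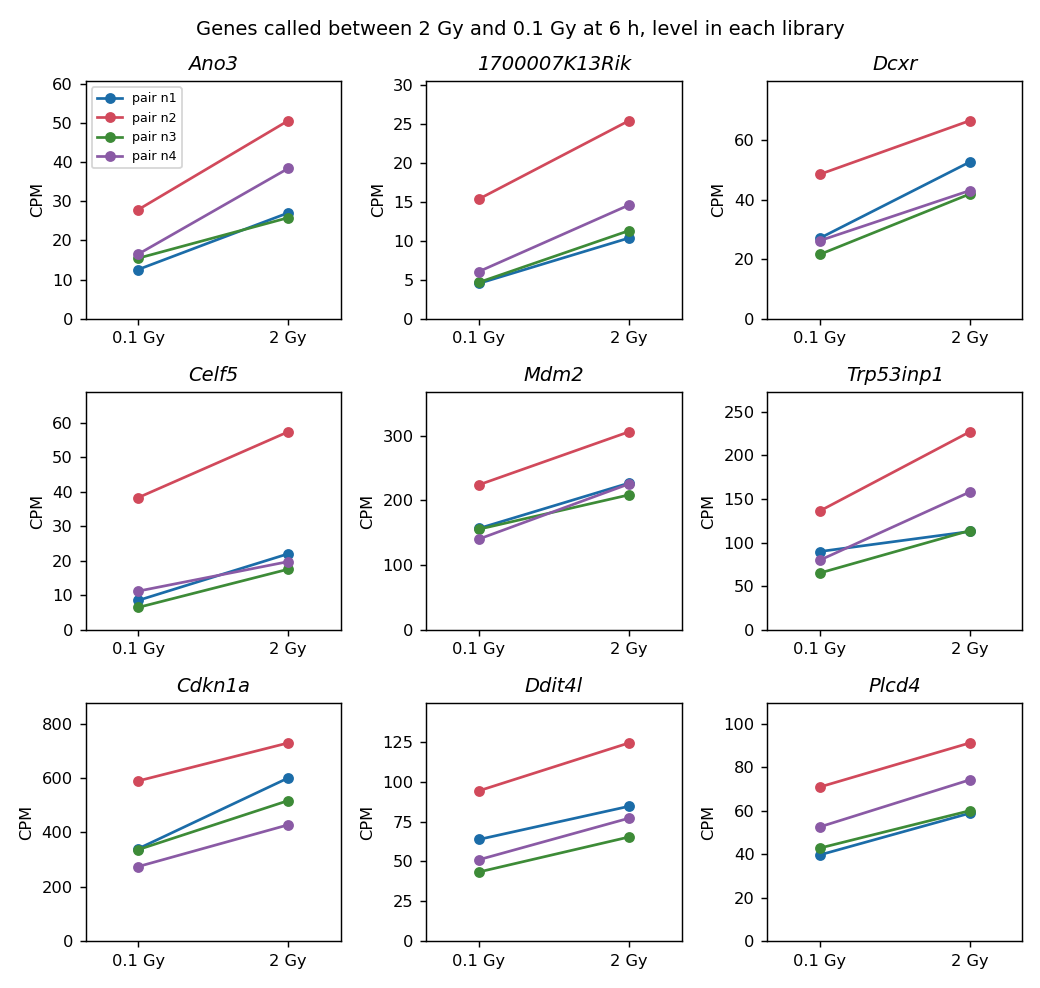
Level of the 9 called genes in each library, in CPM after TMM normalization (vertical axis, from 0), at 0.1 Gy and 2 Gy, with a line for each pair of libraries n1 to n4. Every line rises from 0.1 Gy to 2 Gy, and pair n2 (red) lies highest in every panel, for *Cdkn1a* at 590 and 730 CPM.

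Just outside the threshold lay further known p53 targets. *Eda2r*, a receptor of the tumor necrosis factor receptor family, was at 51.8, 94.0, 33.1 and 33.5 CPM after 0.1 Gy and at 66.9, 136, 46.3 and 60.4 CPM after 2 Gy (log2 fold change 0.56, adjusted p = 0.0616). *Ei24*, a protein of the endoplasmic reticulum, differed by 0.43 (adjusted p = 0.0631). *Tnfrsf10b*, the mouse death receptor for TRAIL, differed by 0.49 (adjusted p = 0.0653). In none of these genes did a pair point the other way. The largest difference over all tested genes was that of *Sec14l5*, chosen after its values were seen, at 0.311, 1.41, 0.0770 and 0.517 CPM after 0.1 Gy and 1.04, 3.41, 0.601 and 1.14 CPM after 2 Gy, with a log2 fold change of 1.48 and an adjusted p of 0.0911.

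All 33 genes of the 3 lists of p53 targets could be tested. The lists were written by hand with earlier results of these data known, so they are no independent signature. Of the 33 genes, 4 rose (*Cdkn1a*, *Mdm2*, *Trp53inp1* and *Dcxr*) and none fell. At an unadjusted p under 0.05, 21 were higher and 0 lower (2.69% and 1.98% of all genes), and 19 were higher in 4 of 4 pairs (6.65%). The median log2 fold change of the 33 genes was 0.30, against 0.00081 over all genes, and within the pairs it was 0.37, 0.24, 0.38 and 0.38. Once GC content and length of the genes were corrected for, 18 of them were called higher, against 104 of all genes (0.639%). DESeq2 called 13 of them higher and edgeR without its filter on low counts 15, where 49 and 135 of all genes were called in either direction. Without the pairing, with library size alone as the scaling, and without pair 3 edgeR called 0 of the 33 (0, 2 and 1 of all genes). Without pair 1, 2 or 4 it called 1, 3 and 9 of the 33 (1, 9 and 45 of all genes). The summed level of the 33 genes was 2747, 3755, 2534 and 2423 CPM after 0.1 Gy and 3703, 4804, 3317 and 3466 CPM after 2 Gy. The sum was higher after 2 Gy in every pair, and only pair 2 at 0.1 Gy lay above any of the 2 Gy libraries. The half-site was found in 6 of 25 matched promoters of these genes (24.0%).

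Among the 11 genes of cell cycle arrest and feedback, 3 rose, 8 were higher at an unadjusted p under 0.05 and the median log2 fold change was 0.32. *Ccng1*, which encodes cyclin G1, was at 550, 693, 557 and 480 CPM after 0.1 Gy and 696, 1067, 669 and 913 CPM after 2 Gy. It differed by 0.54 (adjusted p = 0.118), and pair 3 showed the smallest step. *Sesn2*, a sestrin of the stress response, differed by 0.40 (adjusted p = 0.0911). *Ppm1d*, a phosphatase that acts against p53 signaling, differed by 0.32, and the antiproliferative gene *Btg2* and the polo-like kinase gene *Plk2* by 0.30 each. The adjusted p of these was 0.429, 0.281 and 0.311 in edgeR. *Zmat3* (0.15), *Sesn1* (0.05) and *Plk3* (-0.03) did not pass an unadjusted p under 0.05.

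Among the 12 genes of apoptosis none passed the adjusted threshold in the paired edgeR fit with its filter on low counts. With the correction for GC content and length 8 did, against 104 of all genes called higher (0.639%). Without the filter 7 did, in DESeq2 5 and without pair 4 also 5, where 135, 49 and 45 of all genes were called in either direction. In the paired fit 9 were higher at an unadjusted p under 0.05 and all 12 had a positive log2 fold change, with a median of 0.42. *Pmaip1*, which encodes the BH3-only protein Noxa, was at 37.5, 103, 45.1 and 30.7 CPM after 0.1 Gy and at 77.5, 147, 53.1 and 49.998 CPM after 2 Gy (log2 fold change 0.63, adjusted p = 0.0911). *Pidd1*, the scaffold of a caspase-2 activating complex, was at 18.6, 36.1, 15.1 and 15.8 CPM after 0.1 Gy and at 29.7, 40.6, 30.8 and 28.6 CPM after 2 Gy (log2 fold change 0.67, adjusted p = 0.0925). In *Pidd1* pair 2 alone made the groups overlap. *Perp*, a membrane protein of desmosomes, differed by 0.55, *Phlda3*, an inhibitor of Akt, by 0.41, the apoptosome gene *Apaf1* by 0.30 and the nuclease gene *Aen* by 0.26. The adjusted p of these was 0.259, 0.374, 0.300 and 0.726 in edgeR. *Bbc3* (0.21), *Fas* (0.14) and *Bax* (0.10), a BH3-only protein, a death receptor and an effector of the mitochondrial pathway, did not pass an unadjusted p under 0.05, and *Bax* was higher in 2 of 4 pairs.

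Among the 10 genes of repair and metabolism 1 rose (*Dcxr*), 4 were higher at an unadjusted p under 0.05 and the median log2 fold change was 0.15. *Ercc5*, an endonuclease of nucleotide excision repair, was at 26.0, 40.3, 26.1 and 26.0 CPM after 0.1 Gy and at 32.2, 54.6, 35.5 and 37.9 CPM after 2 Gy (log2 fold change 0.43, adjusted p = 0.0911). *Polk*, a polymerase of translesion synthesis, differed by 0.43 (adjusted p = 0.0957) and *Rps27l*, a ribosomal protein S27-like gene, by 0.21 (adjusted p = 0.867 in edgeR). The other repair genes of the list lay near 0, with *Xpc* at 0.00, *Rrm2b* at -0.01 and *Ddb2* at -0.12, as did *Fdxr* (0.09) and *Tigar* (-0.08), while *Ddit4* was at 0.21 with 2 of 4 pairs higher.

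**Figure D2:**
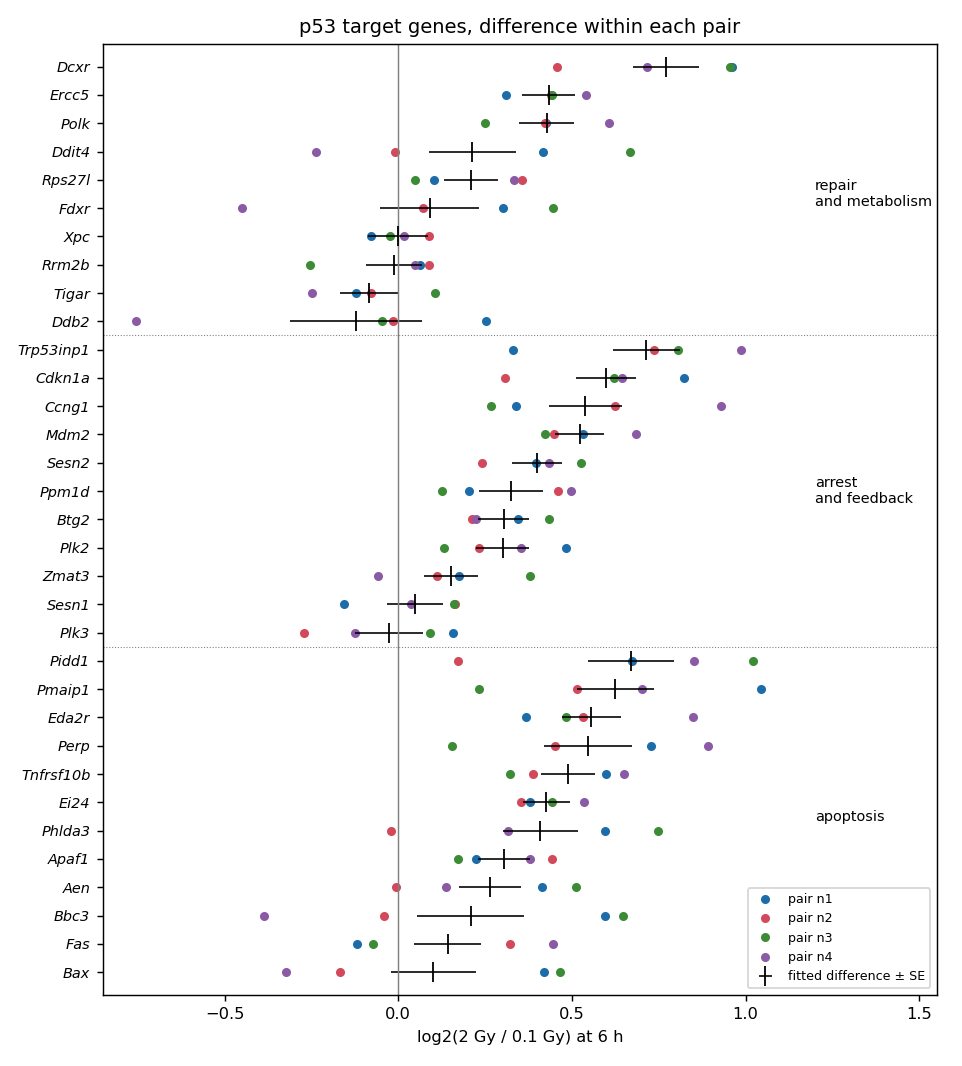
Difference between 2 Gy and 0.1 Gy within each pair of libraries (colored dots, log2 CPM with a prior count of 2) for the 33 p53 target genes, with the fitted log2 fold change and its SE (black). The upper members of each list, such as *Trp53inp1* at 0.71 and *Pidd1* at 0.67, lie right of 0 in all 4 pairs, and the 12 genes that did not pass an unadjusted p under 0.05 have a median of 0.07.

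No gene of the cell cycle lists fell at an adjusted p under 0.05 in the paired edgeR fit with its filter on low counts, while the members were mostly lower after 2 Gy by small amounts. Of 43 S phase genes 42 had a negative log2 fold change, with a median of -0.17. Of these genes 17 were lower at an unadjusted p under 0.05 (background 1.98%) and 17 were lower in 4 of 4 pairs (background 5.63%). Of 54 G2/M genes 49 were negative, 27 were lower and 4 higher at an unadjusted p under 0.05 and 28 were lower in 4 of 4 pairs, with a median of -0.22. The median within the pairs was -0.16, -0.09, -0.37 and -0.14 for the S phase and -0.13, -0.12, -0.45 and -0.15 for G2/M, so pair 3 differed most. Under the same correction 3 S phase and 9 G2/M genes were called lower and 1 G2/M gene higher, against 24 of all genes called lower (0.147%). Without the filter on low counts 4 S phase and 7 G2/M genes were called lower, and without pair 4 *Cenpf* was, where 135 and 45 of all genes were called in either direction. DESeq2 called 8 genes lower over all genes, namely *Lmnb1*, *Cenpf*, *Ptx3*, *Uhrf1*, *Nek2*, *Plk1*, *Espl1* and *Bub1b*.

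*Cenpf*, a kinetochore protein, was at 32.8, 48.5, 47.9 and 29.4 CPM after 0.1 Gy and at 24.1, 38.9, 31.4 and 22.9 CPM after 2 Gy. *Cenpf* differed by -0.44 (adjusted p = 0.0925 in edgeR), and every pair was lower although the groups overlapped. *Lmnb1*, which encodes lamin B1 of the nuclear envelope, was at 59.3, 78.2, 72.8 and 52.5 CPM after 0.1 Gy and at 47.8, 64.6, 52.0 and 35.1 CPM after 2 Gy (log2 fold change -0.41, adjusted p = 0.0995). *Ung*, the uracil-DNA glycosylase of base excision repair, was at 3.36, 2.37, 2.23 and 3.38 CPM after 0.1 Gy and at 1.57, 1.18, 1.56 and 1.38 CPM after 2 Gy. All 2 Gy libraries of *Ung* lay below all 0.1 Gy libraries, as in 67 of all genes (0.412%), with a log2 fold change of -0.98 ± 0.182 and an adjusted p of 0.0958. *Bub1b*, of the spindle checkpoint, also had groups without overlap, at 27.1, 25.9, 33.1 and 29.7 CPM after 0.1 Gy and 21.2, 21.3, 24.1 and 22.0 CPM after 2 Gy (log2 fold change -0.38, adjusted p = 0.168). *Uhrf1*, needed for maintenance of DNA methylation, differed by -0.43 and the claspin gene *Clspn* by -0.39, both without overlap. *Espl1* (separase), *Plk1* and *Nek2* (mitotic kinases), *Kif2c* and *Kif11* (kinesins) and the replication licensing gene *Cdc6* differed by -0.46, -0.44, -0.49, -0.42, -0.35 and -0.44. *Psrc1*, a spindle-associated gene of the G2/M list that is also a known p53 target, went the other way, at 49.96, 79.1, 51.7 and 51.6 CPM after 0.1 Gy and 75.4, 91.3, 76.2 and 69.1 CPM after 2 Gy (log2 fold change 0.44, adjusted p = 0.0911).

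A promoter feature that the lists did not use was searched for as well. The letters TTTGAA, the core of the cell cycle homology region, were found on either strand of the 250 bases before the start in 19 of 47 matched G2/M genes (40.4%) and in 4 of 31 S phase genes (12.9%), against 10.4% of the matched tested genes and 16.2% of all promoters. Examples close to the start site are shown for a kinesin gene, for *Hmgb2* (an HMG-box chromatin protein, log2 fold change -0.28) and for *Cdc20* (the activator of the anaphase-promoting complex, -0.42 with 1 of 4 pairs higher), of which *Hmgb2* and *Cdc20* were chosen after their values were seen. Capitals mark the motif, which in *Kif11* stands on the other strand and so reads TTCAAA.
Kif11, chr19:37376323-37376381, plus strand: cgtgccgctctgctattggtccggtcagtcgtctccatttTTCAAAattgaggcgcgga
Hmgb2, chr8:57511773-57511842, plus strand: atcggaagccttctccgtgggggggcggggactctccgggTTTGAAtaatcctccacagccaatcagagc
Cdc20, chr4:118437344-118437401, minus strand: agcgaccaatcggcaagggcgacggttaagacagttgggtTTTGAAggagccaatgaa
The E2F-type letters TTTCGCGC or TTTGGCGC were found in 5 of 31 S phase genes (16.1%), in 2 of 47 G2/M genes (4.26%) and in 1.2% of the matched tested genes, also on either strand. None of the 8 matched promoters of the genes that rose held TTTGAA or the E2F-type letters, while TTTGAA was in 5 of the 25 matched promoters of the p53 targets.

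Of 27 cyclins, kinases, inhibitors and E2F factors 10 were lower and 1 higher at an unadjusted p under 0.05 (1.98% and 2.69% of all genes), with a median log2 fold change of -0.18. *E2f8* and *E2f1*, an atypical and an activating E2F factor, and *Cdkn2d*, which encodes the inhibitor p19, differed by -0.35 each, and *Rb1*, the retinoblastoma gene, by 0.32. The adjusted p of these was 0.490, 0.449, 0.667 and 0.641 in edgeR. *Rb1* was called higher under the correction for GC content and length (adjusted p = 0.0364 in edgeR). The 66 genes that the study lists as lower 24 h after 2 Gy were all negative at 6 h, with a median of -0.25. Of the 66, 34 were lower at an unadjusted p under 0.05 and none at an adjusted p under 0.05 in the paired edgeR fit. With the correction 8 were called lower, without the filter 7 and in DESeq2 1, where 128, 135 and 49 of all genes were called in either direction. The study chose these 66 genes on libraries of the same experiment, so they are not independent evidence of a direction. Of 19 genes of homologous recombination and the Fanconi anemia pathway 5 were lower at an unadjusted p under 0.05 (1.98% of all genes), with a median of -0.19. Among the 5 were *Palb2* (-0.43), *Fanca* (-0.36), *Fignl1* (-0.36) and *Gen1* (-0.28), at an adjusted p of 0.926, 0.476, 0.374 and 0.997 in edgeR. The 11 genes of non-homologous end joining held none at an unadjusted p under 0.05 and had a median of 0.03. Of 14 checkpoint genes 3 were lower at an unadjusted p under 0.05 (1.98% of all genes). They were *Chek1*, the checkpoint kinase, at -0.35 without overlap of the groups, *H2afx*, which encodes the histone H2AX, at -0.22 and *Clspn* as given above. The adjusted p was 0.896 for *Chek1* and 0.749 for *H2afx* in edgeR. *Chek2* was at 0.20.

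Genes of inflammation and astrocyte reactivity held no gene that passed the adjusted threshold in the paired edgeR fit with its filter on low counts. *Gfap*, the intermediate filament of astrocytes, was at 594, 737, 377 and 382 CPM after 0.1 Gy and at 595, 703, 384 and 337 CPM after 2 Gy, a log2 fold change of -0.05 ± 0.0709 with 2 of 4 pairs higher. The cytokine gene *Il6* was at 21.3, 4.58, 36.7 and 5.72 CPM after 0.1 Gy and at 17.9, 5.42, 13.5 and 8.22 CPM after 2 Gy, a log2 fold change of -0.32 ± 0.247, and its spread between replicates exceeded the difference. *Il1b* (0.20), *Tnf* (0.08) and *Tgfb1* (-0.02), the reference gene *Hprt* (0.09) and the senescence gene *Cdkn2a* (0.01) did not pass an unadjusted p under 0.05 either. The median log2 fold change was 0.00 for 13 pan-reactive genes, -0.01 for 11 tested A1 genes, -0.10 for 11 tested A2 genes, 0.03 for 16 tested cytokines and chemokines, 0.02 for 14 NF-kB factors and targets and 0.03 for 16 interferon-stimulated genes. At an unadjusted p under 0.05, 1 A1 gene was higher and 3 were lower, 2 A2 genes were higher and 2 lower and 1 NF-kB gene was higher, against 2.69% of all genes higher and 1.98% lower. The members with the smallest p were *Ptx3*, a pentraxin of the A2 list, at 160, 26.5, 94.8 and 59.4 CPM after 0.1 Gy and 97.4, 20.6, 86.2 and 39.3 CPM after 2 Gy (-0.46, adjusted p = 0.171), and the adhesion gene *Icam1* (0.30, adjusted p = 0.237). Under the correction both were called, *Ptx3* lower and *Icam1* higher (adjusted p = 0.0142 each in edgeR), and *Ptx3* was also called lower by DESeq2 and without the filter. In *Ptx3* every pair was lower after 2 Gy while the pairs themselves differed far more. *Svop*, a synaptic vesicle protein gene named in the study, was at 10.03, 32.0, 4.504 and 9.72 CPM after 0.1 Gy and at 21.9, 40.05, 14.2 and 13.2 CPM after 2 Gy (0.84 ± 0.178, adjusted p = 0.178). It was called higher with the correction (adjusted p = 0.00704 in edgeR), without the filter and without pair 4. *Abhd11os* differed by -0.14. *Usp30*, which overlaps *Svop* on the other strand, differed by 0.08.

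Of 18 tested immediate early genes 3 were lower and 1 higher at an unadjusted p under 0.05 (1.98% and 2.69% of all genes), with a median of -0.11. They were *Nr4a1*, an orphan nuclear receptor (-0.34), *Fosl2* (-0.21) and *Ier3* (-0.21), against *Fosl1* (0.35), an AP-1 member like *Fosl2*. None was called in the paired edgeR fit, and without the filter on low counts *Fosl1* was called higher and *Nr4a1* lower. The lists of Nrf2 targets (median 0.05), the unfolded protein response (0.03), the circadian clock (0.04), cholesterol synthesis (-0.05), glycolysis and hypoxia (-0.06) and extracellular matrix (-0.06) held no called gene and at most 1 gene each at an unadjusted p under 0.05. The 13 mitochondrially encoded genes had a median of 0.41 with none called in the paired edgeR fit and 3 higher at an unadjusted p under 0.05 (2.69% of all genes). Without the filter on low counts 7 of the 13 were called higher, where 135 of all genes were called in either direction. The summed level of the 13 genes was 13970, 24960, 34820 and 20520 CPM after 0.1 Gy and 15130, 41980, 28550 and 37710 CPM after 2 Gy, so pair 3 went the other way. The part of this share in the other results was not tested.

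**Figure D3:**
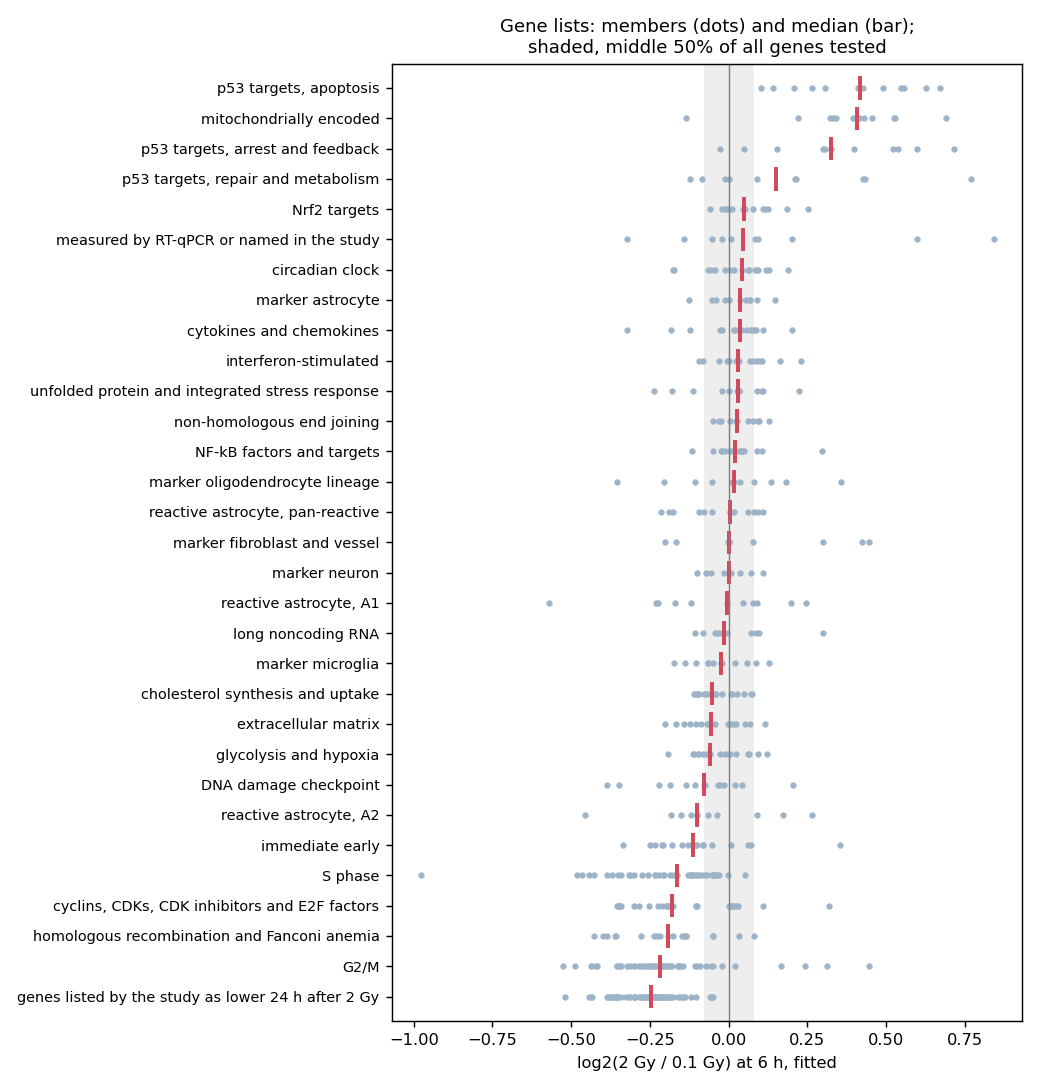
Fitted log2 fold change at 6 h, 2 Gy over 0.1 Gy, of each tested member (dots) and the median (red bar) of 31 gene lists, ordered by median. The shaded band is the middle 50% of all genes tested, from -0.074 to 0.077. The p53 lists and the mitochondrial genes (0.41) lie at the top and the cell cycle lists at the bottom, while the medians of the pan-reactive (0.00), A1 (-0.01), cytokine (0.03) and NF-kB (0.02) lists lie within the band and that of the A2 list (-0.10) below it.

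To compare the early with the later dose difference, 16 libraries (both doses, 6 h and 24 h) were fitted together with the pairs of each time as a block. Of 17067 genes none differed in its dose difference between the times at an adjusted p under 0.05 in edgeR (0%), while at an unadjusted p under 0.05 the difference at 6 h was above that at 24 h in 251 genes (1.47%) and below it in 192 (1.12%). DESeq2 called 1 gene, *Rrm2*, the small subunit of ribonucleotide reductase, which is named here because it was the only one. *Rrm2* was at 67.5, 131, 107 and 71.5 CPM after 0.1 Gy and at 83.5, 135, 80.5 and 60.8 CPM after 2 Gy at 6 h, with 2 of 4 pairs higher. Its log2 fold change in the joint edgeR fit was -0.07 at 6 h and -0.85 at 24 h, a difference of 0.78 in DESeq2 with an adjusted p of 0.0428.

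In the same fit 6 genes were called higher (0.0352%) and 104 lower (0.609%) after 2 Gy at 24 h, and the cell cycle lists lay further from 0 at 24 h. List medians at 6 h are those of the fit of 8 libraries. The 13 mitochondrially encoded genes had a median of 0.41 at 6 h and -0.21 at 24 h. In 7 of the 13 the difference at 6 h was above that at 24 h at an unadjusted p under 0.05 (1.47% of all genes). The S phase list had a median of -0.17 at 6 h and -0.55 at 24 h, with 17 of 43 genes called lower at 24 h, and 24 genes had a less negative difference at 6 h at an unadjusted p under 0.05. The G2/M list had -0.22 and -0.59, with 27 of 54 genes called lower at 24 h and 24 less negative at 6 h at an unadjusted p under 0.05. The list of homologous recombination and the Fanconi anemia pathway had a median of -0.19 at 6 h and -0.70 at 24 h. Of its 19 genes 9 also stand in another list, among them *Fignl1* and *Gen1*, which the study lists as lower at 24 h. Of the 66 genes of the study 36 are shared with another list, as are 20 G2/M and 11 S phase genes. The lists are therefore not separate results. In the joint fit *Uhrf1* was at -0.43 and -0.91, *E2f8* at -0.36 and -1.12 and *Cdc6* at -0.45 and -1.02.

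For p53 targets the medians were larger at 6 h, where they again came from the fit of 8 libraries. The median was 0.32 at 6 h and 0.19 at 24 h for arrest and feedback, 0.42 and 0.28 for apoptosis and 0.15 and 0.08 for repair and metabolism. The difference was larger in size at 24 h in 2 of 11, 3 of 12 and 2 of 10 genes of these lists, such as *Btg2* (0.30 and 0.40) and *Aen* (0.26 and 0.32), and at an unadjusted p under 0.05 it was above that at 24 h in 2, 2 and 0 genes. *Mdm2* was at 0.52 at 6 h and 0.15 at 24 h (unadjusted p of the difference = 0.00757), and *Cdkn1a* at 0.60 and 0.34 (unadjusted p = 0.0846), in edgeR's quasi-likelihood test over all genes. *Ano3* was at 0.98 and 0.33 (unadjusted p = 0.00475) and *Celf5* at 1.03 and 0.45 (unadjusted p = 0.00711). *Dcxr* was called at both times, at 0.77 and 0.58 (adjusted p at 24 h = 0.0386), and *Svop* was at 0.84 at 6 h and 0.95 at 24 h (adjusted p at 24 h = 0.0202), with an unadjusted p of the difference of 0.688. None of these differences between the times passed the adjusted threshold.

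**Figure D4:**
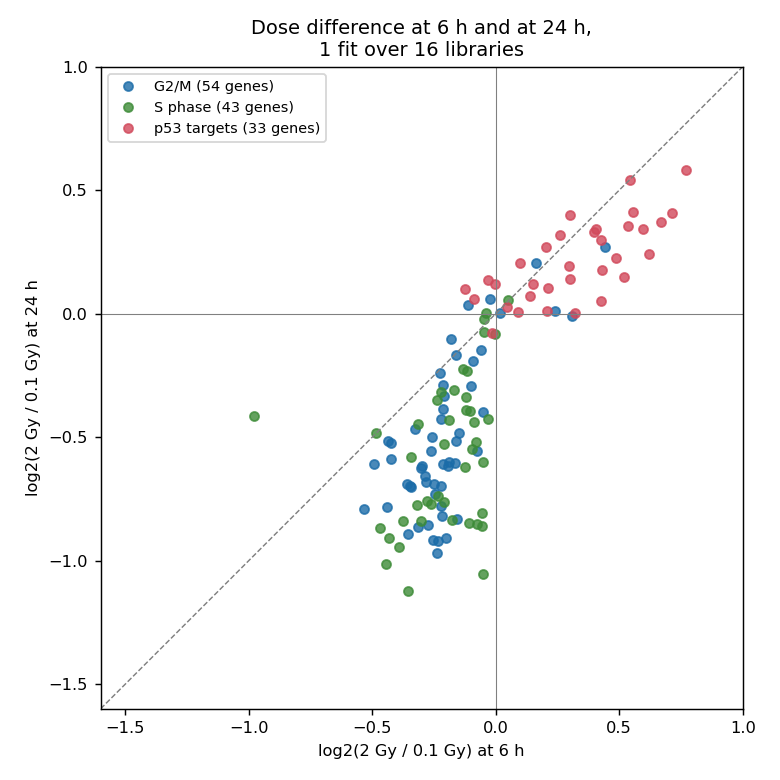
Dose difference (log2 of 2 Gy over 0.1 Gy) at 6 h (horizontal axis) and at 24 h (vertical axis) from 1 fit over 16 libraries, for 33 p53 target genes, 43 S phase genes and 54 G2/M genes, with the line of equal differences dashed. Most p53 targets lie right of 0 and below the dashed line, and most cell cycle genes lie below 0 at both times and further from 0 at 24 h, with medians of -0.55 and -0.59.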

How the data were processed

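RNA was isolated from all samples on one day, polyadenylated RNA was enriched and all libraries were sequenced in one run, with 4 biological repeats per condition. Reads were trimmed, mapped and counted by the sequencing company. The raw counts that the authors deposited cover 49315 genes in a table for each library and are neither normalized nor pooled. The submitters' processing notes name the build mm10, and gene positions are those of GRCm38 (GENCODE M21 was used for GC content and overlaps). The aligner, the counter and the use of strand are not given in the sources used here. Groups and replicate numbers were taken from the labels. Within a group all libraries differed beyond sampling noise (chi-square per degree of freedom of at least 51.68).

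Counts were tested in R 4.3.3 with edgeR 4.0.16 (TMM, filterByExpr, legacy quasi-likelihood test, Benjamini-Hochberg adjustment), with the replicate number as a block. Genes with an adjusted p under 0.05 were called. Libraries with the same number deviated together from their group means (r = 0.601, 0.924, 0.608 and 0.626 for n1 to n4 across genes), each correlating best with its own number, so the numbers were taken as pairs. If the numbers mark no shared culture, p-values measure only the spread between these samples. The precision is set by 4 pairs and by depth.

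Named genes were those with the 10 smallest p-values in each direction, called list members and otherwise up to 4 members of smallest p per list, all p53 targets and genes measured by RT-qPCR or named in the study, and genes overlapping a named gene. For any other gene the text says that its values were known when it was chosen. The 31 lists (the S phase and G2/M lists from a published single-cell package, the 66 genes from the study, the others written by hand from general knowledge) and the comparison itself were chosen with earlier results of these data known, and lists are described without a test. Promoter sequences came from RefSeq. Tests were tried on simulated counts. Alternatives were DESeq2 1.42.0, limma 3.58.1, other scalings and filters, splines per library (5 degrees of freedom) for GC content and length, stricter thresholds and each pair left out.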

Additional observations from a re-analysis of the deposited data

Results flagged for a closer look

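Among 196 groups of 4 libraries checked for the genes named and the marker sums, 19 held a library far from the other 3 (its gap to the nearest library, divided by the group's range, was above Dixon's critical value for 4 samples), where chance flags about 1 in 20 groups. In 15 of the 19 it was replicate 2. After 0.1 Gy replicate 2 was the highest library for *1700007K13Rik* (15.35 CPM), *Celf5* (38.27 CPM), *Ppm1d* (29.64 CPM), *Pidd1* (36.09 CPM), *Perp* (26.85 CPM), *Ercc5* (40.25 CPM) and *Psrc1* (79.06 CPM). After 2 Gy it was the highest for *Celf5* (57.36 CPM), *Perp* (36.71 CPM), *Kif11* (29.69 CPM), *Cdc6* (6.988 CPM), *Fignl1* (14.81 CPM) and *Kif14* (6.084 CPM). Replicate 2 also held the lowest sum of microglia markers after 2 Gy (415.4 CPM) and the highest sum of neuron markers after 0.1 Gy (636.9 CPM), and the part of either in the gene values was not tested.

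Replicate 4 after 2 Gy, the smallest library, was the lowest of its group for *Btg2* (47.24 CPM) and *Cdc20* (13.26 CPM) and the highest for *Lars2* (13650 CPM, against 1030 to 2982 CPM in the other 3). *Lars2* had a log2 fold change of 0.03 over 4 pairs and of -0.61 (adjusted p = 0.0158 in edgeR) without replicate 4. *Gm42418*, an abundant gene chosen like *Lars2* after its values were seen, was at 59136, 16678, 5861 and 14316 CPM after 0.1 Gy and at 37964, 10004, 4596 and 47581 CPM after 2 Gy, highest of the 2 Gy group in the same library and highest of all in 0.1 Gy replicate 1. The 10 most abundant genes took 12.3% of the counts in 2 Gy replicate 4 and 11.1% in 0.1 Gy replicate 1, against 6.24 to 8.9% in the other libraries at 6 h. The part of this in the other results was not tested. Replicate 3 after 0.1 Gy had the highest sum of fibroblast and vessel markers (7694 CPM, against 4537 to 4782 CPM in the other 3).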

How the results depend on the processing

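Without the replicate block, so without the pairing, 0 genes were called higher or lower against 9 higher and 0 lower with it (121 against 761 at an unadjusted p under 0.05). With the block, DESeq2 called 49 genes (41 higher, 8 lower), a correction by splines for GC content and length 128 (104 higher, 24 lower) and no filter on low counts 135 (98 higher, 37 lower). Library size alone in place of TMM gave 2, a minimum absolute log2 fold change of 1 gave 2 and an adjusted p under 0.01 gave 1, all higher. Without 1 replicate pair in turn, 1 to 45 genes were called, 1 to 39 higher and 0 to 6 lower. The 1 gene was *Trp53inp1* without replicate 1 and *Ano3* without replicate 3, and without replicate 2 there were 9, 5 of them shared. All 9 genes were also called by DESeq2, without a filter, with the correction and without replicate 4. Limma voom (7), DESeq2 size factors in edgeR (6), at least 10 counts in every library (9), the newer quasi-likelihood method (9) and 16 libraries in 1 fit (10) stayed within 1.5 times. Genes whose groups do not overlap numbered 48 above and 67 below, and 358 and 314 without replicate 2, an alternative chosen after seeing the data. For the difference between the times the count was 0 under every alternative except DESeq2 with the block (1), and 0 without the replicate block. Of 1375 values of 86 genes under the alternatives 1198 kept direction and side of the threshold, 94 passed it newly, 57 no longer passed it and 26 changed sign. Those that changed sign without leaving out a pair were *Cdkn2a* (-0.0080 in DESeq2, -0.015 with library size alone and -0.0049 without a filter), *Xpc* (0.018) and *Tgfb1* (0.0062) with the correction and *Gm42418* (0.061 without the block). Without 1 pair in turn the sign changed, over these ranges, for *Bax* (-0.027 to 0.24), *Xpc* (-0.031 to 0.027), *Tnf* (-0.020 to 0.19), *Cdkn2a* (-0.12 to 0.17), *Gm42418* (-0.57 to 0.21), *Plk3* (-0.094 to 0.043), *Fdxr* (-0.017 to 0.26), *Rrm2b* (-0.048 to 0.059), *Il6* (-0.57 to 0.11), *Ddb2* (-0.27 to 0.079), *Tgfb1* (-0.072 to 0.028), *Hprt* (-0.028 to 0.21), *Abhd11os* (-0.23 to 0.017) and *Lars2* (-0.61 to 0.43). The cause of these shifts was not tested. GC content correlated across 16238 genes with the differences of the pairs at r = 0.216, -0.342, 0.267 and -0.388, so it differed in sign between pairs. Genes at a few CPM, such as *Ddb2* and *Abhd11os*, are limited by depth.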
